A study of Mus musculus with 11 samples.

Results

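The 10 genes described here encode enzymes that build nucleotides: Ppat, Gart and Paics of purine synthesis, Impdh1 and Impdh2 of guanine nucleotide synthesis, Cad, Dhodh and Umps of pyrimidine synthesis, Ctps, which makes CTP, and Tyms, which makes thymidylate. They were matched by gene symbol, and all 10 of 10 were found among the 54532 genes of the pancreas table and the 46078 genes of the adipose table. The set was chosen by its fold changes in these same libraries, so its values are given as a description and without p-values. The pancreas groups hold 2 libraries of control mice and 3 of OA-AP mice, and the groups of epididymal adipose tissue hold 3 libraries each. OA-AP stands for obesity-related alcohol-induced acute pancreatitis. All mice were wild-type C57BL/6 per the labels (C57BL/6J and male per the study's methods) and 16 weeks old per the labels. Control mice ate chow for 12 weeks and were injected with saline. OA-AP mice had 12 weeks of high-fat food, after which they received 2 intraperitoneal doses of ethanol at 2 g/kg, 1 h apart, and tissue was taken 12 h after the first dose. Diet and ethanol differ together between the groups and cannot be told apart.

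Cells make purines step by step on a ribose-phosphate carrier called PRPP, ending in IMP, from which the adenine and guanine nucleotides branch. Pyrimidines are made as a free ring that is joined to PRPP to give UMP, and CTP and thymidylate derive from it. Dividing cells need both pathways for DNA, while other cells use them for RNA, for sugar carriers such as UDP-glucose and UDP-GlcNAc, and, through CTP, for phospholipid synthesis. Existing bases and nucleosides can instead be recycled by salvage enzymes, which spare the cost of new synthesis.

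In epididymal adipose tissue the transcripts of 7 of the 10 enzymes were higher in OA-AP mice by the threshold for differentially expressed genes (DEGs), and none was lower. Ctps was 5.75-fold higher, Cad 2.15-fold, Gart 2.03-fold, Impdh2 2.03-fold, Impdh1 1.85-fold, Tyms 1.74-fold and Ppat 1.67-fold. Paics, Umps and Dhodh lay between 1.17-fold and 1.29-fold higher and were not DEGs. In the pancreas the 10 enzymes went apart: Ctps was the only DEG that was higher, at 1.59-fold, Ppat and Impdh1 were lower DEGs, and the other 7 were not DEGs. These values use libraries scaled by the trimmed mean of M values (TMM), and with library totals alone neither Ppat nor Impdh1 was lower. A DEG is a gene with a Benjamini-Hochberg adjusted p-value under 0.05 in edgeR's quasi-likelihood test and a fold change of at least 1.5. Of all genes tested in adipose tissue, 12.1% were higher DEGs and 13.0% lower DEGs, and in the pancreas 16.2% were higher and 13.5% lower. Because the fold changes chose the set, nothing is read from these counts beyond the description.

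Levels are given as CPM, the counts of a gene relative to the size of its library after TMM scaling. The pancreas libraries held 14188832 to 17238919 counts and the adipose libraries 20825177 to 27928097. Summed over a panel of 15 acinar genes, the share of counts was 63.2% and 65.0% in control pancreas and 47.0% to 51.3% in OA-AP pancreas, and 12 of the 15 were lower DEGs and none higher. With so large a part of each library in a few genes, scaling decided the direction of many pancreas values: with library totals alone the median log2 fold change of all genes tested rose by 0.71, whereas in adipose tissue it moved by -0.15. Leaving the acinar panel out of the TMM calculation moved the pancreas median by -0.0013. In adipose tissue a panel of 7 adipocyte genes took 2.99% to 4.23% of counts. The acinar panel took 0.824% of the counts of adipose control replicate 2 and at most 0.0018% of those of the other adipose libraries. Without that library 7 of the 10 enzymes remained higher DEGs and none was lower. Whether fewer cells of a type or less RNA per cell lies behind a value cannot be told apart in RNA from whole tissue.

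**Figure D1:**
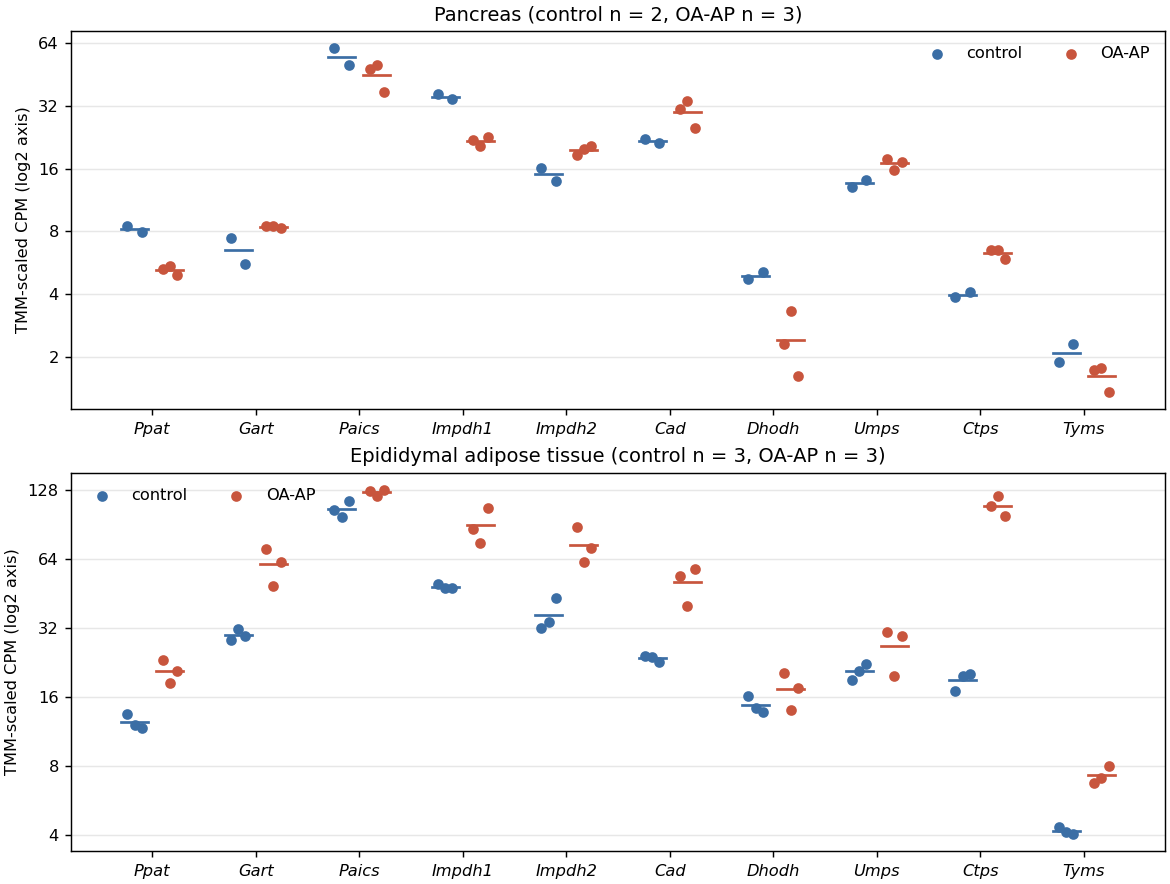
TMM-scaled CPM of the 10 enzymes in each library (points) with the group mean (line), on a log2 axis, for the pancreas above and epididymal adipose tissue below. In adipose tissue the OA-AP points of Ctps lie between 99.0 and 120 CPM against 17.1 to 20.2 CPM in controls. With this scaling the OA-AP points of the pancreas lie above the controls for 5 genes, below for 4, and overlap for Paics.

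The stretches directly before the start sites of 4 of these genes are shown, as the genes behave differently: Ctps changed most in adipose tissue, Impdh1 was lower in the pancreas and higher in adipose tissue and Umps differed least between the tissues with TMM scaling, and Tyms makes the DNA-specific nucleotide. The sequences are 250 bases upstream from RefSeq on GRCm38.p6, from the minus strand and 5′ to 3′. RefSeq start sites were matched for 9 of the 10 genes, without Dhodh. Impdh1 and Ctps have 2 RefSeq starts each, and only the window of the start nearest the deposited gene start was searched. Capitals mark motif letters, searched on both strands: CATGCGC (the core bound by NRF1) in Ctps, at 2 overlapping positions on opposite strands, and CACGTG (the E-box bound by Myc and other helix-loop-helix factors) in Tyms. Umps and Impdh1 held none of the motifs searched.
Ctps, chr4:120570277-120570526: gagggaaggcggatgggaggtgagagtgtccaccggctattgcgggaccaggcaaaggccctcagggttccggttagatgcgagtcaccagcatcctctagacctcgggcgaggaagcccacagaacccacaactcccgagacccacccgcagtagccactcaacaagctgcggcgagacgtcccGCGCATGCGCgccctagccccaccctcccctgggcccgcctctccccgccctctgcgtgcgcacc
Impdh1, chr6:29216365-29216614: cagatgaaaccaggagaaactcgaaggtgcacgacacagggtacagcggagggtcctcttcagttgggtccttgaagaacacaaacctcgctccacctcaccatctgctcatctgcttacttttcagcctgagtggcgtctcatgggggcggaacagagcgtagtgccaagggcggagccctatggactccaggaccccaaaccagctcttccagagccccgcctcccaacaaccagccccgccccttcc
Umps, chr16:33967039-33967288: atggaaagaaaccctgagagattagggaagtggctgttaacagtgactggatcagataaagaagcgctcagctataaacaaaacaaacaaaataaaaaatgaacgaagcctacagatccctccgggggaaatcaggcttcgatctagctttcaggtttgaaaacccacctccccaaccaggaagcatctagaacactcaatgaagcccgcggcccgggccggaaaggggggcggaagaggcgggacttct
Tyms, chr5:30073626-30073875: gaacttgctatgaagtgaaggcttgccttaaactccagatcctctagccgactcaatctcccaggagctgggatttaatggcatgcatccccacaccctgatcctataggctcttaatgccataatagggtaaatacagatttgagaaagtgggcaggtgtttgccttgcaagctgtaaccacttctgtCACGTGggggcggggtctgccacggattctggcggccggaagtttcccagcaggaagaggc
Among the 9 windows CACGTG was found in 3, those of Paics, Impdh2 and Tyms, against 6.02% of 32817 RefSeq windows of the same length. The RefSeq start of Impdh2 lies 150 bases inside the deposited gene, and its CACGTG lies after the deposited start. The Impdh2 window includes exon sequence of Impdh2 itself, and the Paics window includes exon sequence of Ppat. CATGCGC was found in 1 of the 9, that of Ctps, against 3.23%. CCAAT was found in 2 of the 9, those of Gart and Paics, against 33.8%, and TGACGTCA in none of the 9, against 1.55%. A match describes letters in a window and does not show that a factor binds there.

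Ctps (ENSMUSG00000028633, chr4:120539868-120570276, minus strand) encodes CTP synthase 1, which turns UTP into CTP. In adipose tissue it stood at 17.1, 19.9 and 20.2 CPM in the 3 control libraries and at 109, 120 and 99.0 CPM in the 3 OA-AP libraries. Every OA-AP library was far above every control. The log2 fold change was 2.52 with a standard error (SE) of 0.11, and 2.37 with library totals alone. Over the alternative settings it ranged from 2.37 to 2.60. In the pancreas Ctps was at 3.86 and 4.09 CPM in controls and 6.51, 6.52 and 5.91 CPM in OA-AP mice, from 41 to 124 counts. Scaled together over all 11 libraries, Ctps stood at 2.51 CPM per kb in control pancreas and 3.06 in control adipose tissue, and at 4.05 and 17.8 in OA-AP mice. The pancreas groups did not overlap either, with a log2 fold change of 0.67 (SE 0.22), or 1.38 with library totals. The pancreas call was lost with DESeq2, with its size factors in edgeR, and without any one of 4 of the 5 libraries, the exception being OA-AP replicate 3, while the log2 fold change then stayed between 0.63 and 0.71. Counting every alternative setting, 8 of 14 lost the pancreas call of Ctps, among them a fold change of at least 2.

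A second gene, Ctps2, encodes another CTP synthase. It is named here after its values were seen. In adipose tissue Ctps2 was at 68.1, 72.8 and 73.6 CPM in controls and 43.8, 53.8 and 48.7 CPM in OA-AP mice. The OA-AP libraries were all lower, with a log2 fold change of -0.55 (SE 0.10, adjusted p = 0.0059 by edgeR's quasi-likelihood test), which missed the fold threshold. Within a library, the ratio of Ctps to Ctps2 counts per kb of gene length does not depend on the scaling of libraries. That ratio was 0.357, 0.388 and 0.391 in adipose controls and 3.56, 3.18 and 2.89 in OA-AP mice. The ratio was thus below 1 in every control adipose library and above 1 in every OA-AP adipose library. The gene lengths come from the pancreas table and may not fit the adipose counts exactly, which would move all adipose ratios of a pair by the same factor and leave the change between groups as it is. In the pancreas the ratio was 0.622 and 0.628 in controls and 0.584, 0.758 and 0.715 in OA-AP mice, and the groups overlapped. Pancreatic Ctps2 had a log2 fold change of 0.55 (SE 0.19, adjusted p = 0.057 by the same test).

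Purine synthesis begins with Ppat (ENSMUSG00000029246, chr5:76913249-76951578, minus strand), the amidotransferase of the committed step. In adipose tissue Ppat was at 13.5, 12.1 and 11.8 CPM in controls and 23.3, 18.5 and 20.9 CPM in OA-AP mice, a log2 fold change of 0.74 (SE 0.12). In the pancreas it was at 8.50 and 7.98 CPM in controls and 5.30, 5.43 and 4.92 CPM in OA-AP mice, a log2 fold change of -0.66 (SE 0.19). The groups did not overlap in either tissue, and they lay in opposite order. With library totals alone the pancreas value became 0.05 and the groups overlapped. The pancreas call was also lost with DESeq2 and without control replicate 1, control replicate 2 or OA-AP replicate 1, at log2 fold changes of -0.61, -0.70 and -0.68. Counting every alternative setting, 6 of 14 lost the pancreas call of Ppat with the sign kept, and 1 reversed the sign.

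Gart (ENSMUSG00000022962, chr16:91621186-91646952, minus strand) encodes a protein with 3 enzyme activities of the purine pathway. In adipose tissue it was at 28.3, 31.7 and 29.5 CPM in controls and 70.9, 49.0 and 62.2 CPM in OA-AP mice, a log2 fold change of 1.02 (SE 0.14). The pancreas held 7.47 and 5.58 CPM in controls and 8.51, 8.52 and 8.26 CPM in OA-AP mice, a log2 fold change of 0.37 (SE 0.20). Both tissues had every OA-AP library above the controls, the pancreas by little. The antisense gene Gm15964 shares 1014 bases, or 19.7%, of the exons of Gart. The strand setting of the counting is not given in the sources used here, so reads from the shared stretch cannot be assigned to one gene.

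Paics (ENSMUSG00000029247, chr5:76951307-76967509, plus strand) encodes a bifunctional enzyme of later purine steps and was the most abundant of the 10 per length in each of the 4 groups. Adipose libraries held 105, 98.0 and 115 CPM in controls and 127, 121 and 128 CPM in OA-AP mice. The log2 fold change of 0.24 (SE 0.09) left it outside the DEGs, and the groups overlapped with library totals. In the pancreas it was at 60.4 and 50.1 CPM in controls and 48.0, 50.4 and 37.4 CPM in OA-AP mice, with a log2 fold change of -0.29 (SE 0.17) and overlapping groups. With library totals the pancreas value became 0.43. Paics and Ppat start next to each other on opposite strands, and their exons share 272 bases, which are 8.66% of the exons of Paics and 6.15% of those of Ppat.

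Since Gart and Ppat changed unequally in the pancreas, their ratio per length was taken within each library. It was 0.755 and 0.602 in control pancreas and 1.38, 1.35 and 1.44 in OA-AP pancreas. The OA-AP ratios were all higher, and no scaling enters them. Like the other ratios between these enzymes, they rest on the values that chose the genes and are a description, not a test. In adipose tissue the ratio was 1.81, 2.25 and 2.15 in controls and 2.62, 2.28 and 2.56 in OA-AP mice, again without overlap but with a small gap.

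The branch from IMP to guanine nucleotides runs through IMP dehydrogenase, whose isoforms are encoded by Impdh1 (ENSMUSG00000003500, chr6:29200434-29216364, minus strand) and Impdh2 (ENSMUSG00000062867, chr9:108560286-108565584, plus strand). Adipose Impdh1 was at 49.9, 47.8 and 47.7 CPM in controls and 86.8, 75.6 and 107 CPM in OA-AP mice, a log2 fold change of 0.89 (SE 0.13). Adipose Impdh2 was at 32.0, 34.2 and 43.3 CPM in controls and 88.5, 62.3 and 71.4 CPM in OA-AP mice, a log2 fold change of 1.02 (SE 0.17). Both isoforms were thus higher in every OA-AP adipose library than in any control. In the pancreas Impdh1 was at 36.5 and 34.5 CPM in controls and 22.0, 20.6 and 22.8 CPM in OA-AP mice, a log2 fold change of -0.70 (SE 0.13). Pancreatic Impdh2 was at 16.0 and 13.96 CPM in controls and 18.7, 19.8 and 20.6 CPM in OA-AP mice, a log2 fold change of 0.39 (SE 0.15). The isoforms lay in opposite order between the groups in the pancreas. With library totals alone Impdh1 was level, at 0.0042, and Impdh2 at 1.09. Without control replicate 1 the pancreatic Impdh1 call was lost, at a log2 fold change of -0.66.

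The ratio of Impdh2 to Impdh1 per length was 0.471 and 0.433 in control pancreas and 0.910, 1.03 and 0.967 in OA-AP pancreas. Control pancreas therefore held more Impdh1 transcript, and OA-AP pancreas about equal amounts of both. In adipose tissue the ratio was 0.688, 0.766 and 0.973 in controls and 1.09, 0.883 and 0.715 in OA-AP mice, and the groups overlapped. Exons of Impdh2 share 48 bases, or 1.56%, with Ndufaf3, and those of Impdh1 share none with another gene.

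**Figure D2:**
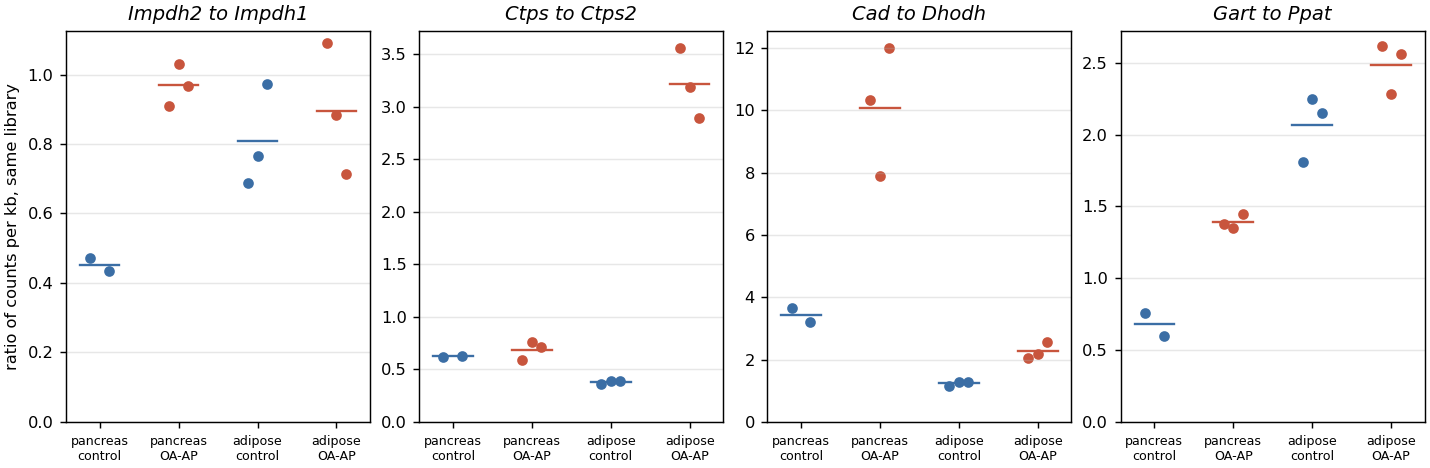
Ratio of 2 genes' counts per kb of gene length within each library (points, with the group mean as a line), for 4 pairs in the 4 groups. Ctps to Ctps2 separates only the adipose groups, at 0.357 to 0.391 against 2.89 to 3.56, and Impdh2 to Impdh1 only the pancreas groups, at 0.433 and 0.471 against 0.910 to 1.03.

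Pyrimidine synthesis opens with Cad (ENSMUSG00000013629, chr5:31054780-31078479, plus strand), whose protein carries out the opening steps of ring assembly. In adipose tissue Cad was at 24.2, 23.9 and 22.8 CPM in controls and 54.2, 40.0 and 58.2 CPM in OA-AP mice, a log2 fold change of 1.10 (SE 0.14). The pancreas held 22.3 and 21.1 CPM in controls and 30.9, 33.9 and 25.2 CPM in OA-AP mice, a log2 fold change of 0.46 (SE 0.16). Every OA-AP library was above every control in both tissues.

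Dhodh (ENSMUSG00000031730, chr8:109591343-109608673, minus strand), the mitochondrial dehydrogenase of the pathway, did not follow Cad. Adipose Dhodh was at 16.2, 14.3 and 13.8 CPM in controls and 20.4, 14.1 and 17.5 CPM in OA-AP mice, so the groups overlapped, with a log2 fold change of 0.23 (SE 0.15). In the pancreas it was at 4.72 and 5.09 CPM in controls and 2.31, 3.32 and 1.62 CPM in OA-AP mice, from 31 to 58 counts. All 3 OA-AP pancreas libraries were lower, with a log2 fold change of -1.02 (SE 0.34). It was not a DEG with TMM, and with library totals the value was -0.30 and the groups overlapped. It became a DEG with DESeq2's size factors in edgeR, with other filters on low counts, and without OA-AP replicate 2 or 3, at log2 fold changes from -1.32 to -0.85.

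Umps (ENSMUSG00000022814, chr16:33954782-33967038, minus strand) encodes UMP synthase, which completes UMP. Adipose Umps was at 19.0, 20.8 and 22.4 CPM in controls and 30.8, 19.8 and 29.6 CPM in OA-AP mice, a log2 fold change of 0.37 (SE 0.17). OA-AP replicate 2 lay within the control range, so the groups overlapped. In the pancreas Umps was at 13.1 and 14.2 CPM in controls and 17.8, 15.8 and 17.3 CPM in OA-AP mice, a log2 fold change of 0.32 (SE 0.15), without overlap. The antisense gene Gm15829 shares 6.11% of its exon bases, so the caution on strand holds here too.

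The unequal values along the pyrimidine pathway can also be given as ratios within libraries, which restate the same counts and test nothing. The ratio of Cad to Dhodh per length was 3.65 and 3.21 in control pancreas and 10.3, 7.90 and 12.0 in OA-AP pancreas. In adipose tissue it was 1.16, 1.29 and 1.28 in controls and 2.06, 2.20 and 2.58 in OA-AP mice. In both tissues every OA-AP ratio was above every control ratio. Umps to Dhodh was 5.05 and 5.06 in control pancreas and 14.03, 8.64 and 19.3 in OA-AP pancreas, whereas the adipose groups overlapped at 2.13 to 2.95 and 2.55 to 3.08.

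Tyms (ENSMUSG00000025747, chr5:30058202-30073617, minus strand) encodes thymidylate synthase, which supplies the nucleotide found only in DNA, and was the scarcest of the 10 per length in each group. In adipose tissue it was at 4.35, 4.11 and 4.05 CPM in controls and 6.74, 7.12 and 7.98 CPM in OA-AP mice, a log2 fold change of 0.80 (SE 0.15). In the pancreas it rested on 22 to 33 counts, at 1.89 and 2.29 CPM in controls and 1.73, 1.77 and 1.36 CPM in OA-AP mice. The pancreas groups did not overlap with TMM, at a log2 fold change of -0.36 (SE 0.35), and did with library totals, at 0.36. Of a panel of 12 S and G2/M phase genes, 11 were tested in adipose tissue and 6 in the pancreas. By edgeR 0 of these were DEGs in either tissue, 1 and 0 had an unadjusted p under 0.05, and DESeq2 also called 0. The summed level of the panel was 91.7 to 110 CPM in adipose controls and 101 to 129 CPM in OA-AP mice.

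**Figure D3:**
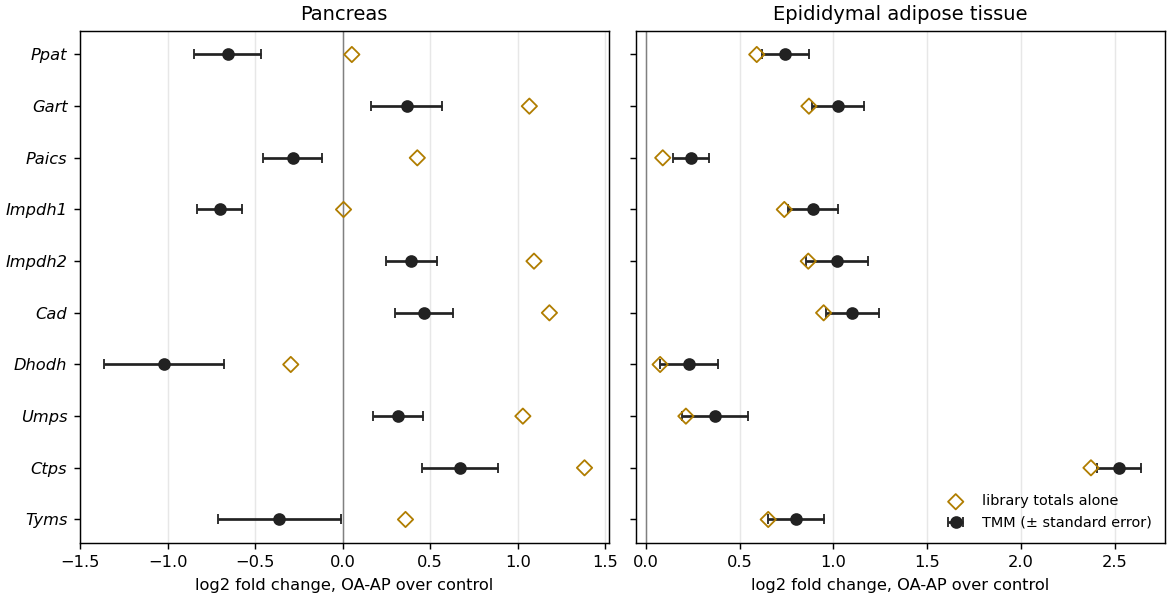
Log2 fold change of OA-AP over control for the 10 enzymes in the pancreas (left) and epididymal adipose tissue (right), with TMM scaling (filled circles, bars are 1 standard error) and with library totals alone (open diamonds). In the pancreas the diamonds are shifted to the right, and Ppat, Paics, Impdh1 and Tyms cross 0. In adipose tissue all 10 values stay above 0 under both.

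Counted together, 8 of the 10 enzymes in adipose tissue had every OA-AP library above every control library and none had every one below, where 26.4% of all genes tested lay wholly above and 26.0% wholly below. In the pancreas 5 enzymes (Gart, Impdh2, Cad, Umps and Ctps) lay wholly above and 4 (Ppat, Impdh1, Dhodh and Tyms) wholly below, where 32.9% and 29.4% of all genes did. The median log2 fold change of the 10 was 0.85 in adipose tissue, against -0.01 over all genes, and 0.01 in the pancreas, against 0.04. With library totals alone the medians were 0.70 against -0.17 in adipose tissue and 0.73 against 0.75 in the pancreas. The number of pancreas DEGs among the 10 then became 5 higher and none lower, where 45.4% of all genes were higher DEGs and 3.93% lower under that scaling. It was 3 with TMM, 1 with DESeq2, and between 1 and 4 when 1 OA-AP library was left out. Fits without a control replicate rest on a lone control and are left out here. No share over all genes is given for DESeq2 or for leaving out a library. The number of DEGs was 1 without OA-AP replicate 1. In adipose tissue it was 7 with each library left out in turn.

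Together the 10 genes took 0.0321% to 0.0348% of the counts in adipose controls and 0.0512% to 0.0573% in adipose OA-AP libraries. In the pancreas they took 0.0138% and 0.0111% in controls and 0.0213%, 0.0205% and 0.0161% in OA-AP mice. Within the summed counts per kb of the 10 genes, Ctps made up 6.11% to 7.17% in adipose controls and 18.4% to 24.9% in adipose OA-AP mice. The share of Paics was 37.4% to 40.0% and 24.2% to 26.4%. In the pancreas the share of Impdh1 was 23.3% and 24.4% in controls and 14.5% to 18.0% in OA-AP mice, while that of Umps was 7.91% and 9.47% against 10.5% to 12.9%.

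**Figure D4:**
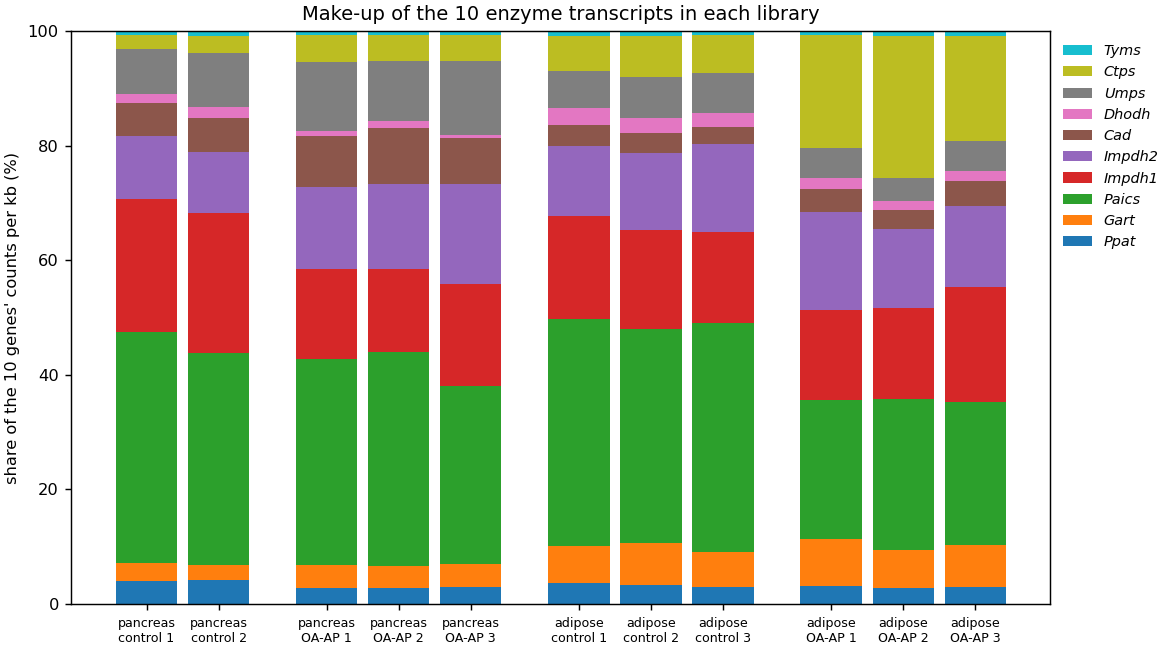
Share of each enzyme in the summed counts per kb of the 10 genes, as a stacked bar for each of the 11 libraries. Paics is the largest block in each library, at 24.2% to 40.4%, and the block of Ctps is 18.4% to 24.9% in the 3 adipose OA-AP libraries and at most 7.17% in the other 8.

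The order of levels per length can be compared between genes on the scale of CPM per kb, within the same limit on the lengths in adipose tissue. In adipose controls the mean was 33.8 for Paics, 14.7 for Impdh1, 11.9 for Impdh2, 5.94 for Umps, 5.80 for Gart and 5.74 for Ctps. The ranges of the last 3 overlapped, so their order is not resolved, and Cad, Ppat and Dhodh followed at 2.89, 2.82 and 2.33. In adipose OA-AP mice Ctps came after Paics, at 33.0 against 39.9, and before Impdh1 at 27.2 and Impdh2 at 24.1, with overlapping ranges between Ctps and Impdh1 and between both Impdh genes. In the pancreas Impdh1 stood clearly before Impdh2 in controls, at 10.8 against 4.88, and beside it in OA-AP mice, at 6.62 against 6.40.

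In one fit over all 11 libraries, the pancreas log2 fold change minus the adipose one was -1.85 (SE 0.20) for Ctps, -1.58 (SE 0.18) for Impdh1 and -1.39 (SE 0.20) for Ppat. It was -1.24 for Dhodh, -1.15 for Tyms, between -0.65 and -0.52 for Gart, Cad, Impdh2 and Paics, and -0.04 (SE 0.23) for Umps. Both tissues entered the choice of the genes, so these differences carry no test. With library totals the median of this difference over all genes rose from 0.06 to 0.88. Ctps, Impdh1, Ppat, Dhodh and Tyms then kept a negative difference, from -0.998 to -0.300, and the other 5 had a positive one, from 0.19 to 0.81.

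Other genes of nucleotide metabolism, 74 in 7 lists, were taken as whole pathways and tested by edgeR's quasi-likelihood test with adjustment over all genes. In adipose tissue 70 were tested, of which 19 were higher and 4 lower, with a median log2 fold change of 0.23. Over all genes tested there, 12.1% were higher DEGs and 13.0% lower. In the pancreas 66 were tested, of which 8 were higher and 15 lower, with a median of -0.14. Over all genes tested there, 16.2% were higher DEGs and 13.5% lower. With TMM, the counts of each list below are to be read beside these same shares. Library totals alone gave 15 higher and 7 lower in adipose tissue, where 8.62% of all genes were then higher DEGs and 18.2% lower. In the pancreas they gave 26 higher and 6 lower of 66, a smaller share of higher DEGs than the 45.4% over all genes.

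Of 6 further genes of purine synthesis, Atic, the enzyme of the final steps to IMP, was the only adipose DEG. It was at 48.0 to 50.8 CPM in controls and 61.4 to 82.6 CPM in OA-AP mice (log2 fold change 0.60, SE 0.12, adjusted p = 0.0093), and fell under the fold threshold without OA-AP replicate 1 or 3, at 0.52 and 0.56, and with library totals, at 0.44. In the pancreas the only DEG of this list was Adssl1, an adenylosuccinate synthase known from muscle, which was lower with a log2 fold change of -2.66 (adjusted p = 0.0016). Of the 4 genes of PRPP synthesis none was an adipose DEG by edgeR or by DESeq2, and 1 had an unadjusted p under 0.05. In the pancreas Prps2, a PRPP synthetase, fell by 1.84 on the log2 scale (adjusted p = 0.0014), from 20.2 and 20.7 CPM to 7.19, 6.12 and 3.77 CPM. Prpsap1, which binds the synthetases, was lower too (log2 fold change -1.38, adjusted p = 0.0091). That call was lost without control replicate 1 or 2, at -1.43 and -1.33, and with library totals, at -0.65.

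Salvage genes had 5 higher and 2 lower DEGs of 17 tested in adipose tissue. Uck2, a uridine and cytidine kinase, was at 15.0, 17.9 and 16.3 CPM in adipose controls and 88.1, 66.0 and 78.2 CPM in OA-AP mice (log2 fold change 2.24, SE 0.13, adjusted p = 0.00022). Uck1, another such kinase, is named after its values were seen and went the other way. It was at 146 to 160 CPM in adipose controls and 34.3 to 61.7 CPM in OA-AP mice. Its log2 fold change was -1.60 (SE 0.21, adjusted p = 0.0020 by edgeR's quasi-likelihood test). Ada, which deaminates adenosine, rose by a log2 fold change of 2.17 (adjusted p = 0.00042). Pnp, the purine nucleoside phosphorylase, was at 59.9 to 69.6 CPM in controls and 154 to 177 CPM in OA-AP mice (log2 fold change 1.35, adjusted p = 0.00040). In the pancreas 2 salvage genes of 15 were higher and 1 lower. Pancreatic Pnp was at 3.09 and 1.99 CPM in controls and 23.8, 20.0 and 26.0 CPM in OA-AP mice (log2 fold change 3.18, SE 0.24, adjusted p = 0.00014). The 2 tables list Pnp under different identifiers and a near-identical copy exists, so its levels are uncertain. Uprt (log2 fold change 1.19, adjusted p = 0.031) and the mitochondrial thymidine kinase Tk2 (log2 fold change -0.63, adjusted p = 0.016) were the other pancreas DEGs. Their calls were lost without some libraries: for Uprt with DESeq2, at 1.19, and without control replicate 1 or 2 or OA-AP replicate 1 or 2, at 0.99 to 1.44, and for Tk2 without control replicate 2 or OA-AP replicate 1, at -0.48 and -0.64, while with library totals Tk2 was at 0.08.

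Folate genes carry the one-carbon units used by purine synthesis and by Tyms. In adipose tissue 4 of 10 were higher and none lower. Mthfd2, a mitochondrial folate enzyme, was at 6.35, 8.69 and 5.14 CPM in adipose controls and 15.4, 21.8 and 18.1 CPM in OA-AP mice (log2 fold change 1.46, SE 0.22, adjusted p = 0.0032). Its mitochondrial partners Mthfd1l and Shmt2 were higher as well, with log2 fold changes of 1.66 (adjusted p = 0.0013) and 0.71 (adjusted p = 0.0020), and Shmt2 fell under the fold threshold with library totals, at 0.56. The pancreas had 1 higher and 3 lower DEGs of 9. There Mthfd2 was at 44.9 and 51.0 CPM in controls and 19.9, 22.2 and 26.8 CPM in OA-AP mice (log2 fold change -1.06, SE 0.16, adjusted p = 0.0021). Shmt2 had a pancreas log2 fold change of -1.002 (adjusted p = 0.0020). Both pancreas calls were lost with library totals, at -0.35 and -0.30. Aldh1l2, a mitochondrial formyl-folate dehydrogenase, was at 88.3 and 92.8 CPM in control pancreas and 3.04, 4.40 and 5.18 CPM in OA-AP pancreas (log2 fold change -4.43, SE 0.21, adjusted p = 3.4e-05), and remained lower with library totals, at -3.73.

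Of 14 genes tested in the list of nucleotide kinases and CTP synthase 2, adipose tissue had 3 higher DEGs and none lower by edgeR, and 4 higher and 1 lower by DESeq2. The pancreas had 1 higher and 6 lower, against 3 higher and 2 lower with library totals. Nme1, a nucleoside diphosphate kinase, had an adipose log2 fold change of 1.39 (adjusted p = 0.0028), the mitochondrial adenylate kinase Ak4 of 1.05 (adjusted p = 0.025) and the UMP and CMP kinase Cmpk1 of 0.65 (adjusted p = 0.012). The Ak4 call was lost without control replicate 1 or 2 or OA-AP replicate 1 or 3, at 0.84 to 1.13, and that of Cmpk1 without OA-AP replicate 3, at 0.57, and with library totals, at 0.50. In the pancreas Ak1, an adenylate kinase of muscle and brain, had a log2 fold change of -3.50 (adjusted p = 0.0011), the mitochondrial kinase Cmpk2, known as an interferon-induced gene, of -2.45 (adjusted p = 0.0049) and Ak6 of 1.51 (adjusted p = 0.0049). The calls of Cmpk2 and Ak6 were lost without control replicate 1, at -1.83 and 1.47.

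Deoxynucleotide genes had 1 higher DEG of 8 in adipose tissue, Dctd, the dCMP deaminase that feeds thymidylate synthesis, with a log2 fold change of 1.82 (adjusted p = 0.0027). In the pancreas Rrm2, a subunit of ribonucleotide reductase, was at 3.09 and 2.99 CPM in controls and 10.8, 8.52 and 9.20 CPM in OA-AP mice (log2 fold change 1.64, adjusted p = 0.0013). Breakdown genes had 5 higher and 2 lower DEGs of 11 in adipose tissue and 3 higher and 1 lower of 11 in the pancreas. Adipose Xdh, which makes uric acid, had a log2 fold change of 1.52 (adjusted p = 0.00058), the guanine deaminase Gda of 1.39 (adjusted p = 0.00047) and Upb1, the last enzyme of pyrimidine breakdown, of -2.60 (adjusted p = 0.0027). Upb1 rested on 33 to 37 counts in adipose controls and 2 to 6 in OA-AP mice. Pancreatic Ampd2, an AMP deaminase, had a log2 fold change of -1.71 (adjusted p = 0.00034) and remained lower with library totals, at -0.998. Ampd3, another AMP deaminase, was higher in the pancreas (log2 fold change 1.97, adjusted p = 0.029), as was the nucleotidase Nt5c (0.70, adjusted p = 0.046). Both calls were lost without either control replicate, at 2.89 without replicate 1 and 1.45 without replicate 2 for Ampd3. That of Nt5c was also lost without OA-AP replicate 1 or 2 and with DESeq2, at 0.58 to 0.78 over these.

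**Figure D5:**
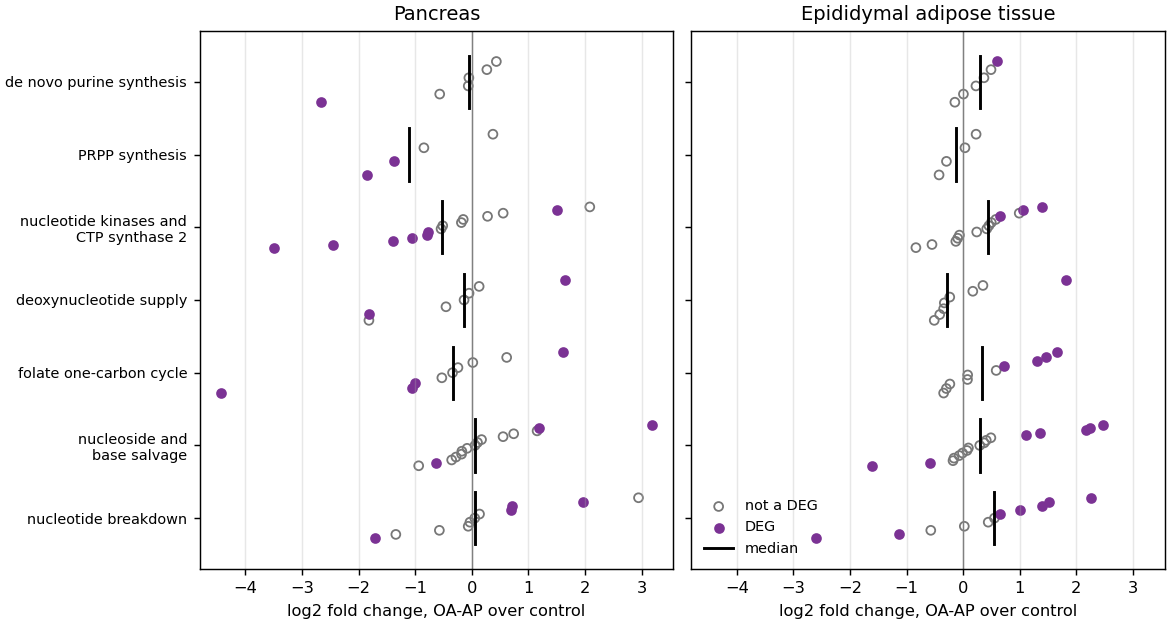
Log2 fold change of OA-AP over control for the tested genes of the 7 lists, in the pancreas (left) and epididymal adipose tissue (right). Filled points are DEGs, open points are not, and black lines are list medians. The median of the kinase list is -0.53 in the pancreas and 0.44 in adipose tissue, and that of the folate list -0.34 and 0.33, with TMM scaling.

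The change differed between the tissues for 25 of 69 of these genes in edgeR's test of the tissue by condition term. It was higher in the pancreas for 6 and lower for 19, where 10.5% of 17046 genes were higher and 10.8% lower. The 69 include Pnp under its adipose identifier, which is not the one its pancreas values carry. Its change could therefore not be compared between the tissues. With library totals alone the split was 19 higher and 10 lower, where 36.8% of all genes were higher and 2.30% lower. The 5 with the smallest p-values were Ampd2, Uck2, Aldh1l2, Shmt2 and Mthfd2, all with the lower change in the pancreas under both scalings. Uck2 had a log2 fold change of 0.10 in the pancreas (adjusted p = 0.62), from 44.0 and 49.8 CPM to 45.7, 48.3 and 56.7 CPM, against 2.24 in adipose tissue, and the difference was -2.13 (SE 0.19, adjusted p = 4.9e-05). For Uck1 the difference went the other way, at 1.34 (SE 0.27, adjusted p = 0.0052 by the same test).

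Markers of other cells moved with the adipose comparison. Of the 7 neutrophil genes, 6 were tested and 5 were higher DEGs, and their summed level was 17.1 to 35.7 CPM in controls and 152 to 191 CPM in OA-AP mice. Of 7 macrophage genes 3 were higher and 1 lower, at 807 to 1032 and 1006 to 1373 CPM summed. The 6 lymphocyte genes tested were all lower, at 10.5 to 44.2 and 2.64 to 3.99 CPM summed, and 5 of 6 fibroblast genes were lower, at 3266 to 4142 and 1926 to 2381 CPM. Of 7 adipocyte genes 1 was higher and 2 lower, and they summed to 36943 to 40218 CPM in controls and 30750 to 37564 CPM in OA-AP mice. Of 5 endothelial genes 0 were DEGs by edgeR or DESeq2 and 2 had an unadjusted p under 0.05 by edgeR. They summed to 901 to 1005 and 1014 to 1458 CPM. In the pancreas neutrophil genes summed to 1.72 and 2.79 CPM in controls and 4.29 to 100 CPM in OA-AP mice. By edgeR 0 of the 6 tested were DEGs and 1 had an unadjusted p under 0.05, while DESeq2 called 5. Of 7 islet genes 2 were higher in the pancreas, at 979 to 1200 CPM summed in controls and 1353 to 1642 CPM in OA-AP mice, and of 5 endothelial genes 2 were lower, at 55.8 to 75.0 and 46.7 to 64.7 CPM. Of 6 duct genes tested 1 was higher and 1 lower, while their list summed to 97.4 to 108 CPM in controls and 119 to 210 CPM in OA-AP mice. Of 7 macrophage genes 1 was lower, while the list summed to 34.3 to 67.1 and 55.4 to 110 CPM. In the tissue for which each list is given here, no gene was at 0 in every library. Outside these, Retn of the adipocyte list was at 0 in every pancreas library. Ins1, Gcg, Iapp and Ppy of the islet list were at 0 in every adipose library. The part of these cell types in the levels of the enzymes was not tested.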

How the data were processed

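RNA of 11 libraries in 4 groups was sequenced. Per the submitters' processing notes and the study's methods, the authors trimmed reads with Trim Galore 0.6.6 and fastp 0.20.1, mapped them to GRCm38 with STAR and counted them with featureCounts 2.0.1. The deposited values are raw counts per gene, with gene length beside them in the pancreas table only, and that length served both tissues. The adipose table gives some genes other identifiers than the pancreas table, so its annotation may differ and these lengths may not fit every adipose gene. The annotation release and strand setting are not given in the sources used here. Samples were grouped by their labels. Each tissue was fitted with edgeR 4.0.16 in R 4.3.3 (filterByExpr, TMM, robust quasi-likelihood test, SE as the log2 fold change over the square root of F), and both together for the tissue by condition term. DESeq2 1.42.0, other scalings, filters and fold thresholds, a replicate block and leaving out each library were alternatives. Fits were tested on simulated data. The genes, the lists and the rule for naming genes were chosen with earlier results of these data known. The rule names all 10 enzymes, up to 3 DEGs by smallest p-value per list and tissue, and up to 5 genes of the tissue by condition test. One item under this rule is not reported here. The labels do not say whether libraries come from separate mice, so p-values measure only the spread between these libraries, which may be technical. No 2 libraries of a group agreed within counting noise: the smallest chi-square value over its degrees of freedom was 6.91.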

Additional observations from a re-analysis of the deposited data

Results flagged for a closer look

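The change differed between pancreas and adipose tissue by edgeR's test of the tissue by condition term for 5 named genes of nucleotide metabolism. The pancreas minus adipose difference in log2 fold change was -2.70 for Ampd2 (adjusted p = 3.8e-05), -2.13 for Uck2 (adjusted p = 4.9e-05), -4.12 for Aldh1l2 (adjusted p = 5.7e-05), -1.70 for Shmt2 (adjusted p = 6.6e-05) and -2.51 for Mthfd2 (adjusted p = 0.00018). With library totals these were -1.85, -1.28, -3.29, -0.87 and -1.68. Aldh1l2 was scarce in adipose tissue, at 1.44 to 2.16 CPM in controls and 0.82 to 1.77 CPM in OA-AP mice. It rested there on 17 to 51 counts and was not a DEG, with a log2 fold change of -0.30 (SE 0.34).

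For 3 enzymes every OA-AP library lay below the controls in the pancreas and above them in adipose tissue. Of all genes tested, 29.4% lay wholly below in the pancreas and 26.4% wholly above in adipose tissue. The share of all genes that did both was not computed, so nothing is read from the count of 3. The log2 fold changes were -0.66 and 0.74 for Ppat, -0.70 and 0.89 for Impdh1, and -0.36 and 0.80 for Tyms. The difference between the tissues was not tested for these genes, since the fold changes chose them. The pancreas values became 0.05, 0.0042 and 0.36 with library totals alone.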

How the results depend on the processing

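Library totals alone turned the pancreas log2 fold change of Ppat to 0.052, Paics to 0.43, Impdh1 to 0.0042, Tyms to 0.36 and Tk2 to 0.085. These were the only reversed values among the alternatives run. Of the 10 enzymes, 3 were pancreas DEGs, against 5 with library totals, 1 with DESeq2 and 0 at a fold change of at least 2. In adipose tissue 7 were DEGs, against 4 at a fold change of at least 2. Shares over all genes are given only for TMM and for library totals at the main thresholds. Counts of enzymes or pathway genes under the other settings are therefore a description, and cannot be set against all genes. Leaving out each library gave 0 to 4 pancreas and 7 to 7 adipose enzymes, 11 to 26 pancreas pathway genes against 23, 20 to 26 adipose pathway genes against 23, and 20 to 27 genes in the tissue by condition test against 25. The 11 came without either control replicate in the pancreas, where the lone control was assumed to vary like the other group. Without the fold threshold 34 adipose pathway genes were called, and the share over all genes was not computed for that rule. Of 484 single-gene values under the other alternatives, 440 kept direction and call, 32 lost and 7 gained the call and 5 reversed, and of 334 with a library left out, 298 kept both, 34 lost and 2 gained the call. Same-numbered libraries had correlations of their deviations between -0.16 and 0.13. With so few libraries per group, these values cannot decide whether same-numbered libraries share a mouse. With the replicate block 3 pancreas and 7 adipose enzymes, 25 pancreas and 22 adipose pathway genes were called, and 21 genes in the tissue by condition test with the block within each tissue and 18 with same-numbered pancreas and adipose libraries paired. With 31 to 58 counts for Dhodh and 22 to 33 for Tyms, depth limits the pancreas values of both. Depth also limits the pancreas values of Adssl1, Ak1 and Cmpk2, with 9 to 16, 7 to 25 and 12 to 24 counts in OA-AP mice. Pancreatic Ampd3 had 6 to 19 counts in controls.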
